A study of Mus musculus with 2 samples.

Results

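The transcription factors that set the identity of the intestinal epithelium and choose its cell lineages were followed in H3K36me2 peak lists of mouse colon, 1 list from *Nsd2* fl/fl and 1 from *Nsd2* ΔIE animals. The 9 genes were *Cdx1*, *Cdx2*, *Gata6*, *Klf4*, *Klf5*, *Elf3*, *Atoh1*, *Spdef* and *Sox9*, and the peaks followed were those that the authors annotated to one of these symbols as the nearest gene. Of the 19976 peaks listed for *Nsd2* fl/fl, 12 were of this kind, and of the 23518 for *Nsd2* ΔIE, 7 were. They belonged to 7 of the 18187 genes with a peak in either library. Summed over the genes, 58253 bp lay in such peaks in the former library and 24837 bp in the latter. All listed peaks together held 102992493 bp and 88118230 bp. Counted by position in the gene with 3 kb on either side, whatever the annotation, the factors held 23859 bp and 23576 bp. By annotation, no factor had more called length in *Nsd2* ΔIE by more than the limit used here, against 39.7% of all genes. *Cdx2* and *Atoh1* had no annotated peak in either library. At *Cdx1*, *Gata6* and *Sox9* the direction depended on how peaks were assigned to the gene.

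The study asked what the loss of NSD2, an H3K36 methyltransferase, does in the intestine of mice fed HFCD, a diet rich in fat and cholesterol used to induce fatty liver inflammation. The labels name the genotypes NSD2fl/fl and NSD2∆IE, colon as the tissue and HFCD as the treatment of both. *Nsd2* fl/fl mice carry *Nsd2* alleles flanked by loxP sites and served as the controls, and *Nsd2* ΔIE mice carry the same alleles with a *Villin*-Cre transgene, whose promoter is active in epithelial cells of the intestine. By the methods, the animals were male littermates of 7 to 8 weeks on the C57BL/6J background when the diet began, and HFCD was given for 18 weeks, while the deposited design text gives 16 weeks. The data comprised 1 library per genotype, so no difference between the genotypes has a replicate check and none was tested. The libraries are called fl/fl and ΔIE below, and how many mice each holds is not given in the sources used here. The libraries were made from whole colon tissue, in which *Villin*-Cre leaves NSD2 in the stromal, muscle, nerve and immune cells, and fewer cells of a type cannot be told apart from less mark per cell.

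H3K36me2 is a dimethyl mark on histone H3 that NSD family enzymes place over broad domains, in gene bodies and in the DNA between genes. CUT&Tag maps it by directing a transposase to an antibody on chromatin, and a peak is a stretch called above background. The epithelium of the colon renews itself from stem cells in the crypts, whose progeny become absorptive colonocytes or secretory goblet, enteroendocrine and tuft cells. CDX1 and CDX2 are homeobox factors that specify the intestine, and GATA6 is a zinc finger factor of the gut endoderm. KLF5 is known from proliferating crypt cells, and KLF4 from differentiated and goblet cells. ELF3 is an epithelial ETS factor. ATOH1 is the switch to the secretory fate, SPDEF is an ETS factor that drives goblet cell maturation, and SOX9 is an HMG box factor of the crypt base.

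Promoter sequences of these genes were compared because the mark at a promoter was among the values measured, and because the genes differ much in their CG content. RefSeq promoters of GRCm38.p6, running from 250 bases before to 50 bases after a start, were at hand for 5 of the 9 genes. The promoters of *Spdef*, *Klf4*, *Cdx2* and *Atoh1* are printed 5′ to 3′ with each CG dinucleotide in capitals. *Spdef* had promoter peaks, the only peak of *Klf4* lay away from the gene, and *Cdx2* and *Atoh1* had no annotated peak.
Spdef, chr17:27728902-27729201, minus strand: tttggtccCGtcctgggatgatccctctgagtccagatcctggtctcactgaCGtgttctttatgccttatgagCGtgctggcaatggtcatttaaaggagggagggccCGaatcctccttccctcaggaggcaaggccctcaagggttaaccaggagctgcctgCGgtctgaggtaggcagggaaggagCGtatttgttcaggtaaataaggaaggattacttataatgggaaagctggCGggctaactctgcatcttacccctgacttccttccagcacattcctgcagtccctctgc
Klf4, chr4:55532426-55532725, minus strand: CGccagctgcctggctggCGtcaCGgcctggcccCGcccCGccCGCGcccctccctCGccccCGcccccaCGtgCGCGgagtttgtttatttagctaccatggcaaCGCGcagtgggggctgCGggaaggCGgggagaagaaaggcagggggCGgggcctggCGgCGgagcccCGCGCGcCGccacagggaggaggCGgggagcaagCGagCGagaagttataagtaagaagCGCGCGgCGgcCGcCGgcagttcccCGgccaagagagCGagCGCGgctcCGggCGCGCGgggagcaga
Cdx2, chr5:147307200-147307499, minus strand: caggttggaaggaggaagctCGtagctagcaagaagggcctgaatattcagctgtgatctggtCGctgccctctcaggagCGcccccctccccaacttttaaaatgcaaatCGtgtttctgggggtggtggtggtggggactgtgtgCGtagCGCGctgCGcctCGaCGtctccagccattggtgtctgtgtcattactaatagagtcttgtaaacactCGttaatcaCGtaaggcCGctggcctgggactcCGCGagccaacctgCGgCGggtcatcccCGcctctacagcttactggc
Atoh1, chr6:64728875-64729174, plus strand: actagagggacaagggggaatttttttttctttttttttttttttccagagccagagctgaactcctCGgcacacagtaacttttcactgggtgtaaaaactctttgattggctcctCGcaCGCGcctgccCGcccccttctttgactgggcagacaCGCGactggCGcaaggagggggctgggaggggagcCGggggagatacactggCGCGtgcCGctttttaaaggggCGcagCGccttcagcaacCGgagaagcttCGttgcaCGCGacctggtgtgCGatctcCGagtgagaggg

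The promoter of *Klf4* held 40 CG dinucleotides in its 300 bases, and 3.91% of the 32851 promoters of the table held as many. Those of *Atoh1* and *Cdx2* held 20 and 18, reached by 26.5% and 29.7% of promoters. *Elf3* had 12, reached by 39.6%, and *Spdef* had 7, the median over all promoters, reached by 52.1%. The *Spdef* start of the table lies 2052 bp inside the 5′ end of the gene in GRCm38.p6, so its letters belong to another start than those to which the peaks were annotated. Only CG on the printed strand was searched, and the same letters are read on the other strand. The peak lists use another build than GRCm38.p6, so these promoters were not placed relative to peaks, and all coordinates below are those of the lists.

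Over 16457 autosomal protein-coding genes with a promoter in the table, the share with a promoter peak was 8.42% in fl/fl (95% Wilson interval 7.63% to 9.28%) and 9.11% in ΔIE where the promoter held 0 to 4 CG dinucleotides. With 30 or more, as in *Klf4*, it was 22.1% (20.6% to 23.6%) and 20.1% (18.7% to 21.6%). With 20 to 29, as in *Atoh1*, it was 20.9% and 19.6%, and with 10 to 19, as in *Cdx2* and *Elf3*, it was 19.8% in both. Of the 5 genes with a printed or counted promoter, *Spdef* alone had an annotated promoter peak. The intervals here and below cover the counting of genes or peaks only.

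**Figure D1:**
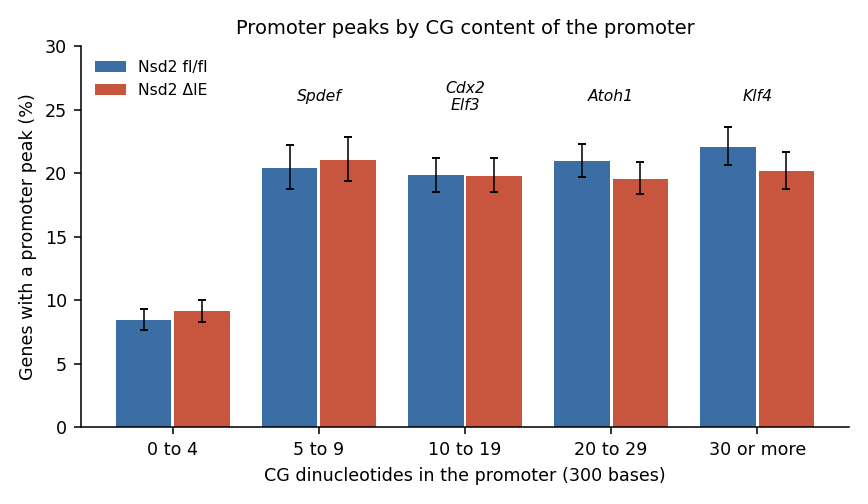
Share of genes with an H3K36me2 promoter peak (y axis, percent) in 5 classes of CG dinucleotides per 300-base promoter (x axis), for fl/fl (blue) and ΔIE (red); bars are shares, error bars 95% Wilson intervals, and the names above mark the class of 5 of the 9 genes. The share is lowest, 8.42% and 9.11%, with 0 to 4 CG dinucleotides, and 19.6% to 22.1% in the other classes.

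For the series as a whole, the median peak width was 4643 bp in fl/fl and 3426 bp in ΔIE, and the called length was 102992493 bp and 88118230 bp, a log2 ratio of -0.23. The lowest summed signal, the authors' coverage value of a peak, was 21783 and 16571. The number of reads is unknown, so signal was ranked within a list and not compared between the lists. Among 20665 autosomal protein-coding genes, 32.7% had a peak in fl/fl, 34.9% in ΔIE and 54.1% in neither, and a promoter peak was listed for 17.7% and 17.3%. Against these, 7 of the 9 factors had a peak in fl/fl, 6 in ΔIE and 2 in neither, and 3 and 2 had a promoter peak. These counts rest on annotation to the nearest gene, which can be far from the peak. By position in the gene with 3 kb on either side, 4 factors had a peak in fl/fl and 3 in ΔIE. By that measure 10013 and 10409 of the 18187 genes with a listed peak had one. A missing peak says only that no stretch passed the limit of the list.

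The called length of a gene is the summed width of the peaks annotated to it. A log2 ratio of ΔIE to fl/fl below -0.5 was counted as less, above 0.5 as more and between them as similar, and a gene without a peak in ΔIE was put under less, one without a peak in fl/fl under more. By this measure 6 of the 7 factors with a peak had less length in ΔIE, 1 was similar and 0 had more. Over all 18187 genes, 43.3% had less, 16.9% were similar and 39.7% had more. The median log2 ratio of the 6 factors with a peak in both libraries was -0.94, against -0.32 over 7870 genes. Among the 667 genes that the authors' annotation assigns to a transcription factor family, 42.1% had less and 36.7% had more.

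**Figure D2:**
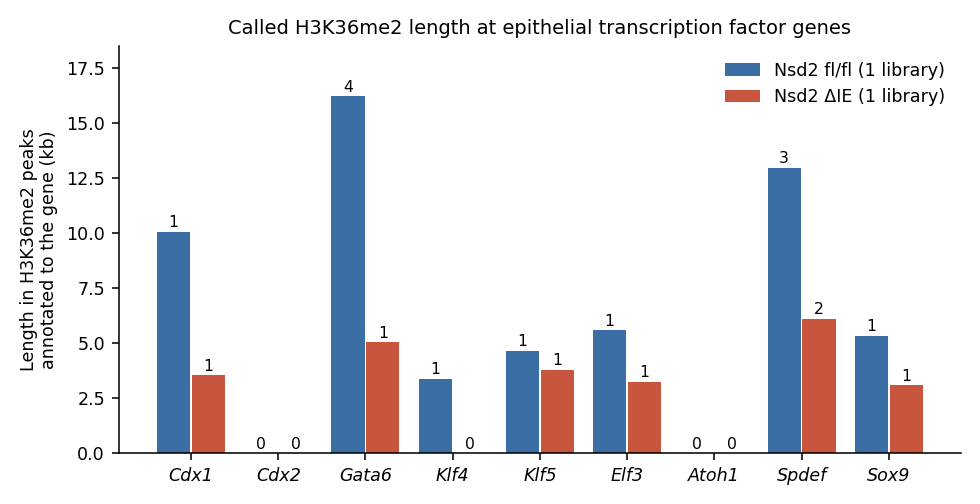
Length in H3K36me2 peaks annotated to each of 9 transcription factor genes (y axis, kb) in the fl/fl (blue) and the ΔIE library (red), 1 library each; the number above a bar is its number of peaks. The blue bar is higher at all 7 genes with a peak, most at *Gata6* (16219 bp and 5043 bp), and *Cdx2* and *Atoh1* have none. The difference passes the limit at 6 of them, a class that holds 43.3% of all genes with a peak.

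*Cdx1* had 10071 bp in 1 peak in fl/fl and 3542 bp in 1 peak in ΔIE, a log2 ratio of -1.51. Of the genes with a peak in both libraries, 11.2% had a lower ratio. The gene is on chromosome 18, minus strand, from 61151934 to 61169271. The fl/fl peak, from 61168248 to 61178318, covered the TSS and reached from -9047 to 1023 bp relative to it. Its width exceeded that of 96.7% of the peaks of its list and its summed signal of 68864 that of 97.2%. The ΔIE peak, from 61168418 to 61171959, lay wholly inside it, from -2688 to 853 bp. So both libraries had a called stretch over the *Cdx1* TSS, and the one of fl/fl ran further upstream.

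The upstream part was not free of peaks in ΔIE. A second ΔIE peak of 3432 bp, from 61172880 to 61176311, lay inside the fl/fl *Cdx1* peak but was annotated to *Pdgfrb*, the neighbouring gene for a receptor of mesenchymal cells. Together these ΔIE peaks covered 6974 bp or 69.2% of the fl/fl peak. The highest signal of the fl/fl peak stood at -8145 to -8100 bp, beyond the end of the ΔIE *Cdx1* peak, whose own maximum was 5873 bp away. ΔIE also had a peak of 3464 bp within the *Cdx1* gene, from 61162361 to 61165824, annotated to *Gm52351*. Its *Slc6a7* peak from 61146992 to 61158778 reached over the 3′ end of *Cdx1*, as did the fl/fl *Slc6a7* peak from 61145237 to 61154278, which ended nearer to that end of the gene.

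When the gene with 3 kb on either side was measured by position, whatever the annotation, *Cdx1* had 9369 bp in fl/fl and 16851 bp in ΔIE, a log2 ratio of 0.85. Within 50 kb of the TSS the lengths were 41651 bp and 52779 bp, a log2 ratio of 0.34. *Cdx1* thus had less length by annotation, more in the gene with its flanks, and similar length by the limit within 50 kb.

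*Cdx2*, the paralogue on chromosome 5, had no annotated peak. The nearest genes with a fl/fl peak on either side were *Gm38750* (147168480 to 147172783) and *Flt3* (147308035 to 147312767), and in ΔIE *Mir7k* (147220165 to 147223250) and *Flt3* (147309370 to 147314018). The *Flt3* peaks of the libraries overlapped. By annotation, *Cdx1* thus had a promoter peak in both libraries and *Cdx2* in neither. The lists give no position for *Cdx2*, so a peak over it annotated to another gene was not sought.

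*Gata6* had 16219 bp in 4 peaks in fl/fl and 5043 bp in 1 peak in ΔIE, a log2 ratio of -1.69, and 7.95% of genes had a lower one. It is on chromosome 18, plus strand, from 11054036 to 11085636. In fl/fl a promoter peak from 11053200 to 11056889 covered the TSS, from -836 to 2853 bp, with 7.91 signal units per bp, above 91.6% of its list. The other 3 fl/fl peaks were distal intergenic and began 40911, 50235 and 139840 bp downstream of the TSS. None of these met a ΔIE peak, and the summed signals of the distal peaks exceeded those of 46.2%, 49.4% and 35.8% of their list. The only ΔIE peak, from 11065659 to 11070701, lay in exon 6 of 7 of the annotated transcript, 11623 to 16665 bp downstream, and did not overlap any fl/fl peak. It was wide but shallow for its list, wider than 87.9% of the peaks and with 3.67 signal units per bp, above only 0.19% of them.

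By position, the gene with 3 kb on either side held 3690 bp in fl/fl and 5043 bp in ΔIE, a log2 ratio of 0.45 and similar by the limit. In the wider window of 50 kb the lengths were 13019 bp and 5043 bp, a log2 ratio of -1.37. The peak over the *Gata6* TSS, which reached 2853 bp into the gene, was thus listed in fl/fl only. The exon peak further into the gene was listed in ΔIE only, and the downstream intergenic peaks in fl/fl only.

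*Klf4* had 1 peak of 3395 bp in fl/fl and none in ΔIE. The gene is on chromosome 4, minus strand, from 55527137 to 55532475. The peak, from 55511497 to 55514891, was distal intergenic and lay 17584 to 20978 bp downstream of the TSS, beyond the 3′ end of the gene. It was narrower than most, its width exceeding that of 10.4% of its list, but its 8.77 signal units per bp exceeded those of 97.1%. The nearest ΔIE peak, 35276 bp away and annotated to *Gm34343*, lay on the other side of the gene, from -20.3 to -17.7 kb of the TSS. Within 50 kb of the TSS each library had a peak, with 3395 bp and 2645 bp, a log2 ratio of -0.36. The CG-rich *Klf4* promoter printed above had no peak in either library.

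*Klf5* was the 1 factor with similar length, 4664 bp in fl/fl and 3795 bp in ΔIE, a log2 ratio of -0.30. Its peaks were far from it. The gene is on chromosome 14, plus strand, from 99536127 to 99550848, and the peaks, from 99458561 to 99463224 in fl/fl and from 99445670 to 99449464 in ΔIE, lay at -77566 to -72903 bp and at -90457 to -86663 bp. Both fell in exons of *Pibf1*, exon 16 and exon 15 of 18, and were given to *Klf5* as the nearest start. The peaks did not overlap and were 9096 bp apart. The ΔIE peak had a summed signal of 16607, just above the lowest of its list, and exceeded 0.74% of its peaks. The 50 kb on either side of the *Klf5* TSS held no peak in fl/fl or ΔIE.

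*Elf3* had 5603 bp in fl/fl and 3257 bp in ΔIE, each in 1 peak, a log2 ratio of -0.78, and 29.7% of genes had a lower one. It is on chromosome 1, minus strand, from 135181312 to 135186210, and both peaks lay past its 3′ end. The fl/fl peak, from 135174154 to 135179756, began 6454 bp downstream of the TSS, and the ΔIE peak, from 135172785 to 135176041, began 10169 bp downstream. They shared 1888 bp, 33.7% of the fl/fl and 58.0% of the ΔIE peak, and their maxima were 158 bp apart. *Cdx1* and *Elf3* were the only factors whose own peaks overlapped between the libraries. The fl/fl peak reached nearer to the gene, so that 1445 bp of it and 0 bp of the other lay within 3 kb of the gene. *Elf3* had 10082 bp and 3257 bp within 50 kb of the TSS, a log2 ratio of -1.63.

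*Atoh1*, on chromosome 6, had no annotated peak, and the lists give no position for it. The switch to the secretory fate was thus without an annotated peak in both libraries, and peaks annotated to other genes were not placed relative to it.

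*Spdef*, which acts later in the goblet lineage, had 12967 bp in 3 peaks in fl/fl and 6109 bp in 2 peaks in ΔIE, a log2 ratio of -1.09, and 20.3% of genes had a lower one. The gene is on chromosome 17, minus strand, and the lists hold 2 starts for it, at 27945604 and 27949977, which are 4373 bp apart. The fl/fl promoter peak, from 27943307 to 27948270, covered the inner start, from -2666 to 2297 bp. The ΔIE promoter peak, from 27951296 to 27954863, lay before the outer start, from -4886 to -1319 bp of it. The promoter peaks had 4964 bp and 3568 bp, a log2 ratio of -0.48 and within the limit, but they did not overlap and were 3025 bp apart. fl/fl had a further peak inside the gene, from 27935835 to 27940225, annotated to the 5′ UTR, with 7.99 signal units per bp, above 92.5% of its list. The last pair lay upstream of the gene, from 27965641 to 27969252 in fl/fl and from 27969665 to 27972205 in ΔIE, 412 bp apart. Their annotated features were downstream of a gene end (<1 kb) and a 3′ UTR, which cannot be those of *Spdef*. Both still count towards its called length, and the summed signal of the ΔIE peak exceeded that of 10.7% of its list.

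By position, the *Spdef* gene with 3 kb on either side had 9355 bp in fl/fl and 1682 bp in ΔIE, a log2 ratio of -2.48, and 3.43% of genes had a lower one. Within 50 kb of the TSS the lengths were 23464 bp and 15279 bp, a log2 ratio of -0.62, when measured from the inner start. From the outer start they were 19973 bp and 15069 bp, a log2 ratio of -0.41 and similar by the limit. *Spdef* thus had less length by annotation and in the gene with its flanks, and within 50 kb the count depended on the start.

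*Sox9* had 5334 bp in fl/fl and 3091 bp in ΔIE, each in 1 peak, a log2 ratio of -0.79, and 29.6% of genes had a lower one. The gene is on chromosome 11, plus strand, from 112673036 to 112678583, and both peaks were distal intergenic, upstream of it. The fl/fl peak, from 112663611 to 112668944, lay at -9425 to -4092 bp, and the ΔIE peak, from 112660401 to 112663491, at -12635 to -9545 bp. They did not overlap, yet only 119 bp separated them, so that fl/fl had the stretch nearer to the gene and ΔIE the adjoining one further out. Within 50 kb of the TSS *Sox9* had 5334 bp and 5611 bp, a log2 ratio of 0.07, since ΔIE had a further peak downstream, from 112714705 to 112717224, annotated to *1700012H19Rik*.

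**Figure D3:**
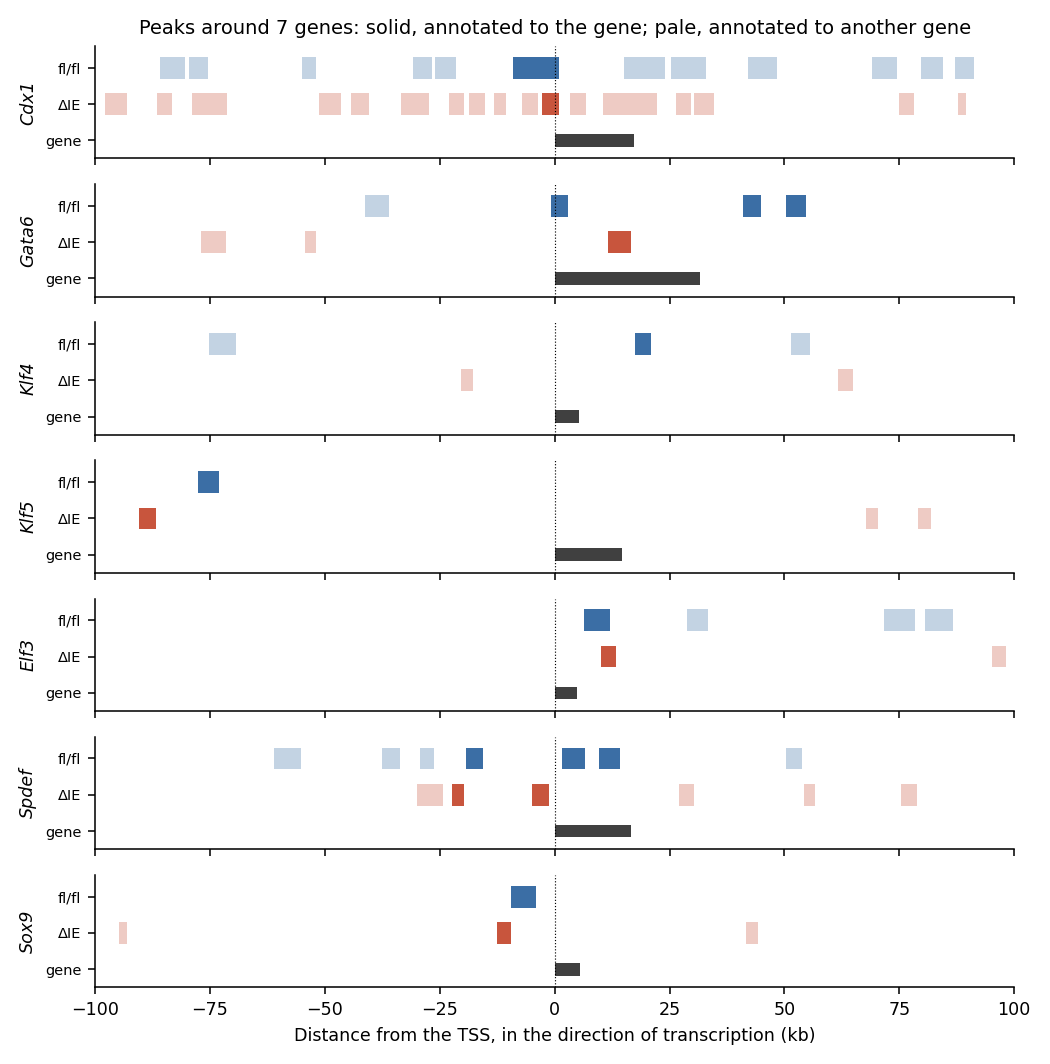
H3K36me2 peaks within 100 kb of the TSS of 7 genes (x axis, kb from the TSS in the direction of transcription), with fl/fl in blue, ΔIE in red and the gene in black; solid peaks are annotated to the gene and pale ones to another gene. At *Cdx1* the solid red peak lies inside the solid blue one, at *Elf3* they overlap in part, and at *Gata6*, *Klf5*, *Spdef* and *Sox9* they lie apart.

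Counted by position within the gene and 3 kb, 4 of the 7 factors that the lists place had a peak, of which 2 had less length in ΔIE (*Elf3* and *Spdef*), 1 was similar (*Gata6*) and 1 had more (*Cdx1*). Over 13565 genes, 44.2% had less, 19% were similar and 36.9% had more. Within 50 kb of the TSS, a window added after the data were seen, 3 of 6 factors had less (*Gata6*, *Elf3* and *Spdef*), 3 were similar and 0 had more with the inner start of *Spdef*, and 2 had less and 4 were similar with its outer start, against 42.1%, 28% and 29.8% of 17511 genes. The total over the factors was 23859 bp and 23576 bp in the first window and 96945 bp and 84614 bp in the second. The near equality in the first window joined opposite differences at *Cdx1* and *Spdef*, and without *Cdx1* the totals were 14490 bp and 6725 bp.

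**Figure D4:**
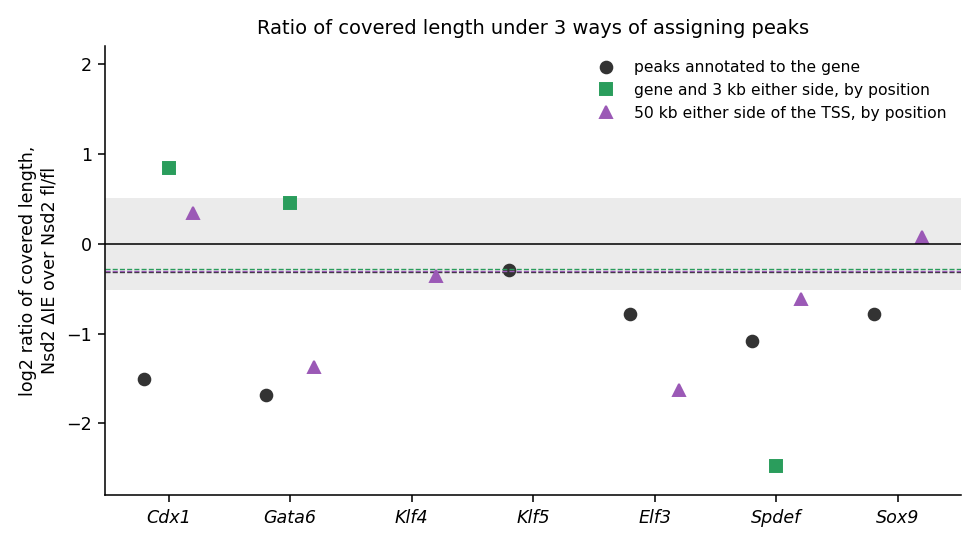
The log2 ratio of covered length, ΔIE over fl/fl (y axis), for 7 genes (x axis) with peaks taken by annotation (circles), in the gene and 3 kb on either side (squares) and within 50 kb of the TSS (triangles); the grey band spans -0.5 to 0.5, dashed lines are the medians over all genes, and a gene with no length in a library has no symbol. *Cdx1* lies at -1.51 by annotation and at 0.85 and 0.34 by position, while *Spdef*, with its inner start, lies below the band in all 3 and would lie at -0.41 within 50 kb of its outer start.

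With promoter peaks alone, 3 factors could be counted, with less length at *Cdx1* and *Gata6* and similar length at *Spdef*. The background was 49.2% less, 10.1% similar and 40.7% more. By number of peaks, 3 of 7 factors had fewer in ΔIE (*Gata6*, *Klf4* and *Spdef*) and 0 had more, against 33.2% and 44% of genes. With a log2 limit of 1, 4 had less (*Cdx1*, *Klf4*, *Gata6* and *Spdef*), against 35.1%. Since the median peak width was lower in ΔIE, the log2 ratios were also centred on the median log2 ratio. This left the same 4 factors with less length and 3 similar, against 37.5% of genes with less and 44% with more.

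Peaks were also compared by position. In fl/fl 2 of 12 (16.7%, 95% Wilson interval 4.70% to 44.8%) overlapped a ΔIE peak, those of *Cdx1* and *Elf3*, against 34.1% of the whole list. In ΔIE 2 of 7 (28.6%, 8.22% to 64.1%) overlapped a fl/fl peak, against 30.7%. With so few peaks, both intervals hold the share of the whole list. The gap from each unshared peak to the nearest peak of the other library was also taken. Of 10 in fl/fl, 5 were within 10 kb of a ΔIE peak, as were all 5 in ΔIE of a fl/fl peak. Over the whole lists the shares were 38.5% and 35.7%, and the median gaps were 15.9 kb and 18.1 kb.

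Promoters took 3 of 12 peaks in fl/fl (25%, 8.89% to 53.2%) and 2 of 7 in ΔIE (28.6%), against 32.1% and 27.9% of the lists. Distal intergenic peaks were 5 of 12 (41.7%, 19.3% to 68.0%) and 2 of 7 (28.6%), against 18% and 20.1%. In fl/fl these 5 were 3 of *Gata6* and 1 each of *Klf4* and *Sox9*, and the 3 at *Gata6* share a locus. The widths ran from 3395 to 10071 bp in fl/fl and from 2541 to 5043 bp in ΔIE. Counted around any listed TSS, 3 and 2 of the 7 genes had a peak of any annotation within 3 kb, 5 and 3 within 10 kb, and 6 and 6 within 50 kb. At 10 kb, fl/fl had *Gata6* and *Elf3* in addition to the genes of ΔIE. These 7 genes were taken because they had an annotated peak. The share of all genes with a peak in these windows was not counted per library.

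Other transcription factors of the intestinal epithelium were split between the directions. Of 50 such genes 33 had a peak, 24 in each library and 15 in both. Their summed length was 249621 bp in fl/fl and 178262 bp in ΔIE, so in sum they too had less in ΔIE. In ΔIE 14 had less length, 6 were similar and 13 had more, beside the same 43.3%, 16.9% and 39.7% of all genes, with a median log2 ratio of -0.24 over the 15. *Hnf4a*, a nuclear receptor of enterocytes, had 4122 bp in fl/fl and 11128 bp in ΔIE, a log2 ratio of 1.43. Its ΔIE length was the sum of 3 peaks, against 1 in fl/fl. The promoter length of *Hnf4a* was 4122 bp in fl/fl and 2019 bp in ΔIE. *Ascl2*, a factor of the stem cells, had 7585 bp and 10911 bp, and *Bhlha15*, a factor of secretory cells, had 13446 bp and 19387 bp. *Hes5*, a Notch target, had 12737 bp and 9949 bp, and *Creb3l1*, a factor of the secretory pathway, 7268 bp and 9597 bp, both similar.

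Among the same 50 genes, *Pou2f3*, the factor of tuft cells, had 17981 bp in fl/fl and 3781 bp in ΔIE, a log2 ratio of -2.25. *Insm1*, a factor of enteroendocrine cells, had 10701 bp and 3401 bp, a log2 ratio of -1.65. *Cbfa2t3*, a corepressor, had 45479 bp and 17726 bp, a log2 ratio of -1.36, and *Isx*, an intestinal homeobox factor, 34314 bp and 18686 bp, a log2 ratio of -0.88. The range of these log2 ratios takes in those of the 6 factors with a peak in both libraries, so that *Cdx1*, *Gata6* and *Spdef* did not stand outside it.

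**Figure D5:**
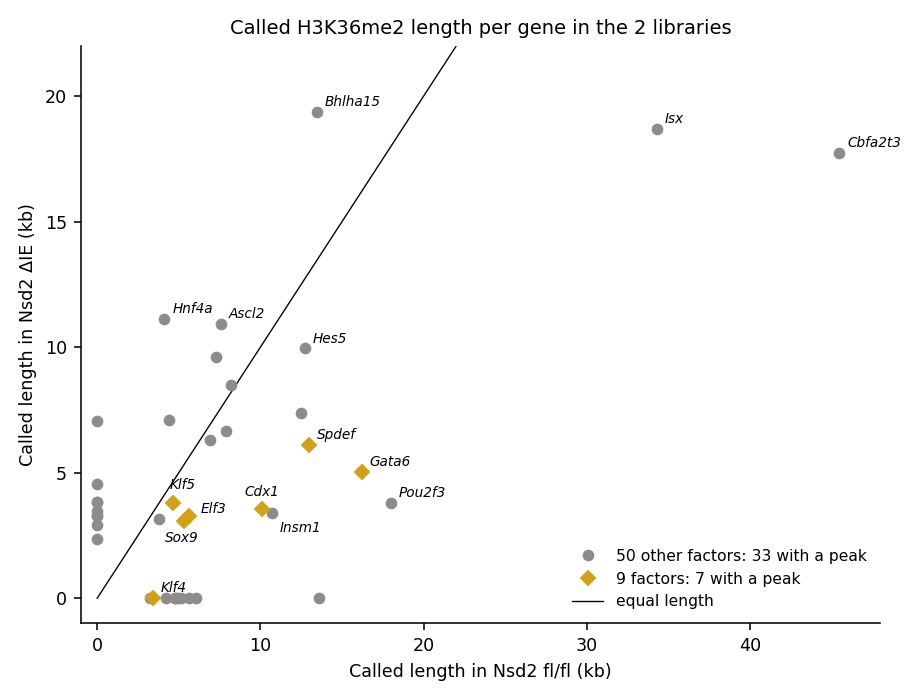
Called H3K36me2 length per gene in fl/fl (x axis, kb) and ΔIE (y axis, kb) for the 9 factors (diamonds) and 50 other epithelial transcription factors (circles), genes without a peak left out; the line marks equal length and the axes differ in scale. The 7 diamonds lie below the line, 6 of them counted as less, while the circles lie on both sides, 14 counted as less and 13 as more.

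Genes that mark the lineages these factors serve were counted in the same way. Of 41 listed, 23 had a peak, 16 in fl/fl and 19 in ΔIE, and 8 had less length in ΔIE, 3 were similar and 12 had more, beside 43.3%, 16.9% and 39.7% of all genes. The median log2 ratio of the 12 with a peak in both was 0.19. Among goblet cell genes 2 had less and 3 more, among stem cell genes 2 less, 1 similar and 3 more, among absorptive genes 1 less, 1 similar and 4 more, and among tuft cell genes 2 less and 2 more. Of the enteroendocrine genes 1 had less and 1 was similar. *Muc2*, the main gel-forming mucin of goblet cells, had 9018 bp in fl/fl and 15304 bp in ΔIE, and *Tff3*, a goblet cell peptide, 3784 bp and 9807 bp. At both genes the ΔIE length was the sum of several peaks, 4 at *Muc2* and 3 at *Tff3*, against 1 in fl/fl, and the promoter length of *Muc2* was 9018 bp in fl/fl and 4278 bp in ΔIE. The goblet cell genes with less length, *Agr2* (3708 bp) and *Galnt12* (4591 bp), which are named here after their values were seen, had a peak in fl/fl only.

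*Trpm5*, an ion channel of tuft cells, had 4425 bp in fl/fl and 15458 bp in ΔIE, the largest log2 ratio of the lineage genes with a peak in both, 1.80. *Lct*, the lactase gene, followed with 4372 bp and 14145 bp, a log2 ratio of 1.69. *Avil*, also of tuft cells, had 4308 bp and 2627 bp, and *Aqp8*, a water channel of colonocytes, 5132 bp and 3361 bp. *Axin2*, a Wnt target, had 11607 bp and 9717 bp, and *Ephb2*, a receptor of crypt cells, 5582 bp and 3312 bp, a log2 ratio of -0.75. *Chga*, of enteroendocrine cells, had 19548 bp and 20703 bp, and *Cdh17*, an intestinal cadherin, 11100 bp and 13620 bp.

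The tissue label was set against marker genes, with the limit that a peak of this mark does not measure expression. Of 10 epithelial markers 7 had a peak, with 43147 bp in fl/fl and 67363 bp in ΔIE in sum, and the keratins *Krt8* and *Krt18* and the galectin *Lgals4* had none in either library. *Vil1*, the epithelial gene whose promoter drives the Cre, had 13184 bp and 23472 bp, of which 13184 bp and 13479 bp lay in promoter peaks. ΔIE animals carry a further *Villin* promoter in the transgene. Its part in the *Vil1* value, and so in the epithelial sum, was not tested. Smooth muscle markers had a peak at 4 of 6 genes, with 42815 bp and 17522 bp, and immune markers at 4 of 10, with 16905 bp and 20774 bp. Endothelial markers had a peak at 3 of 5, with 25368 bp and 33448 bp, enteric neural and glial markers at 5 of 6, with 29436 bp and 51377 bp, and the 6 fibroblast markers at none. The smooth muscle sum was carried by *Myh11*, with 30046 bp in fl/fl and 7771 bp in ΔIE. *Cnn1* had 9872 bp and 3315 bp, *Tagln* was similar with 2897 bp and 3606 bp, and *Des* had 2830 bp in ΔIE only. Of the 7 epithelial markers with a peak 1 had less, 2 were similar and 4 had more, and the part of these cell types in the result was not tested.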

How the data were processed

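H3K36me2 was profiled by CUT&Tag in colon, with 1 *Nsd2* fl/fl and 1 *Nsd2* ΔIE library. Per the labels, the processing tools were Bowtie2, deepTools, SEACR and ChIPseeker, with no versions, and the build named is human (hg38), which cannot be that of these mouse transcripts. Of 13259 transcripts also held by a GRCm38.p6 gene table, 134 had the same length and start, so the lists' coordinates were used as given. The authors deposited, per library and without pooling, each peak with its position, its summed signal (coverage), the nearest gene and the distance to the TSS. Promoters reach 3 kb from a TSS. No normalization to depth is stated.

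Widths were summed per gene in pandas 2.3.3 and numpy 2.4.6 under Python 3.11.15, and Wilson intervals came from scipy 1.17.1. Peaks sharing at least 1 bp were counted as overlapping. Functions were tested on simulated data, in which 3000 of 3000 genes were put in their class. The members and the gene lists were chosen with earlier results of these data known. The rule for other named genes took genes with promoter peaks in fl/fl and in ΔIE, the 3 longest in each library, the 5 largest log2 ratios and markers with a peak. *Si*, 1 of the 41 lineage genes, was not matched in the gene table. A control, an input and spike-in were not used here, and the alternatives tried are given with the limits.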

Additional observations from a re-analysis of the deposited data

How the results depend on the processing

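Of 82 values for counts, totals and shares under an alternative, 44 stayed within 1.5 times or the interval, and 38 moved. Log2 ratios of single factors gave 24, of which 5 changed sign. These were *Cdx1* in 2 settings, *Gata6* and *Sox9*, given below, and *Klf5*, which stayed within the limit at 0.022 when centred. No paired analysis was possible because a single library per genotype leaves nothing to pair. No library was left out either, since none would remain for that genotype. Depth is unknown, so a missing peak is not evidence that the mark is absent.

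By position in the gene and 3 kb, *Cdx1* turned to 0.85 and *Gata6* to 0.45, factors with a peak numbered 4 and 3, the *Nsd2* fl/fl total was 23859 bp, 2 factors had less and 1 more, and 5 lineage genes had less. Within 50 kb of the TSS, an alternative chosen after seeing the data, *Cdx1* turned to 0.34 and *Sox9* to 0.073, the totals were 96945 bp and 84614 bp, and 3 factors had less and 3 were similar. With the outer start of *Spdef*, also chosen after seeing the data, the totals were 93454 bp and 84404 bp, 2 factors had less and 4 were similar, and *Spdef* was at -0.41. At *Cdx1* and *Sox9* the windows took in *Nsd2* ΔIE peaks annotated to other genes, and at *Gata6* the narrow one left out the distal *Nsd2* fl/fl peaks.

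With promoter peaks only, 3 and 2 factors had a peak, the totals were 18725 bp and 7110 bp, and 2 factors had less. Of the other factors 9 had less, 3 were similar and 7 had more, and of the lineage genes 5, 0 and 7. With the strongest 50% of each list, 2 factors had a *Nsd2* ΔIE peak, with 7110 bp, and 100% of these peaks were at promoters. With equal numbers of peaks 0 factors were similar. With a log2 limit of 1, 3 factors, 11 other factors and 9 lineage genes were similar, and 4 lineage genes had less. Centring left 3 factors similar, and the number of peaks gave 3 with less and 4 similar. Under a reciprocal overlap of 50%, 0% of the peaks of the factors were shared in either library.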
